A study of Mus musculus with 2 samples.

Results

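Type 2 dendritic cells that carried the spatial barcode ZC2 were compared with those that carried ZC3 in a B78ChOVA melanoma, a mouse tumour grown under the skin and harvested 16 days after injection. In ZipSeq, light is used to tag cells of selected regions in a live section, here about 160 µm thick, with DNA barcodes before the tissue is dissociated and sorted. Droplets then capture a cell's mRNA together with its spatial barcodes, called ZC1, ZC2 and ZC3. The 2 samples were the gene expression (GEX) and barcode (ADT) libraries of the same immune cells, and all 4236 kept cells had a ZC UMI. A UMI is a tag that counts 1 captured molecule.

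Type 2 dendritic cells were chosen by a fixed rule and were 121 of 4236 kept cells. The rule asked for at least 5 UMIs of Cd209a, Kmo and Flt3 together, which 184 cells had. Limits on genes of type 1 dendritic cells (Xcr1, Clec9a) left 154 of them, limits on genes of mature migratory dendritic cells (Ccr7, Fscn1) left 143, limits on CD3 genes left 132 and limits on C1q genes left 121. The region rule divided each ZC's share of a cell's ZC UMIs by that ZC's share in barcodes with 10 to 100 gene UMIs, which hold free molecules. The highest of these relative shares had to be at least 1.5 times the next. By this rule 44 cells were ZC2 cells, 32 were ZC3 cells and 18 were ZC1 cells, and 27 had no region. ZC2 and ZC3 cells were captured in the same library and share the labelled harvest time, and differed in the barcode placed on them. Which part of the tumour each ZC marks, the strain and age of the mice, the genotype and the number of tumours are stated neither in the labels nor in the series text.

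Type 2 conventional dendritic cells take up antigen in tissue, load it on MHC class II and present it to CD4 T cells. Interferons bind receptors on such cells and switch on a broad set of genes through STAT and IRF transcription factors. Interferon gamma comes mainly from T and NK cells, and type I interferons come from many cells that sense nucleic acids. Among the genes they induce are Cxcl9 and Cxcl10, chemokines that draw Cxcr3-bearing T cells.

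With 1 library and no replicates, no test was possible, and no gene was counted as changed. Levels are in CPM: the UMIs of a gene in all cells of a set, per 1000000 gene UMIs of that set. Ratios are ZC2 over ZC3, each followed by its 95% counting interval, which covers neither differences between cells nor differences between tumours. A gene is called higher or lower where its ratio was at least 1.5 or at most 0.667. ZC2 cells held 737796 gene UMIs in all and ZC3 cells 634947. Depth per cell had a median of 14746.5 UMIs in ZC2 cells (range 6763 to 37241) and 19713 UMIs in ZC3 cells (range 7485 to 50704). The median mitochondrial share was 3.02% in ZC2 cells and 2.63% in ZC3 cells.

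The label was checked against marker genes fixed for the purpose. Cd209a, a lectin used by the rule, was found in 38 of 44 ZC2 cells and in 30 of 32 ZC3 cells. Of the 9 markers of type 2 dendritic cells, the summed level had a median of 2182 CPM per ZC2 cell and 1905 CPM per ZC3 cell. Cd209a, Kmo and Flt3 are among the 9, so the rule set part of this sum in advance. Clec10a, a lectin outside the rule, was at 363 CPM in ZC2 cells and 276 CPM in ZC3 cells, against 20.0 CPM in the other kept cells. Mgl2, its neighbouring lectin gene, was at 457 CPM in ZC2 cells and 515 CPM in ZC3 cells, against 71.7 CPM in the other kept cells. The remaining markers outside the rule were mixed. Sirpa was lower, at 168 CPM in ZC2 cells and 148 CPM in ZC3 cells, against 326 CPM in the other kept cells. Itgax was close, at 153 CPM in ZC2 cells and 148 CPM in ZC3 cells, against 131 CPM. Irf4 was at 16.3 CPM in ZC2 cells and 1.57 CPM in ZC3 cells, against 2.59 CPM. Zbtb46 was higher in both sets than its 1.47 CPM in the other kept cells. The NK cell markers Ncr1, Klrb1c and Nkg7, the B cell markers Cd79a and Ms4a1, the neutrophil markers S100a8 and S100a9 and the T cell markers Cd3e and Cd3g were at 0 UMIs in both sets. Cd79b of the B cell markers and Csf3r of the neutrophil markers each had 4 UMIs in ZC2 cells and 1 UMI in ZC3 cells. Of the T cell markers, Cd3d had 3 UMIs in each set and Trac 0 UMIs in ZC2 cells and 2 UMIs in ZC3 cells. The cell rule limited the CD3 genes, so their low counts were set in advance. Over the 6 macrophage markers the summed level was 315 CPM in ZC2 cells (0 to 1495 CPM per cell) and 319.7 CPM in ZC3 cells (0 to 4648 CPM per cell). C1qa, C1qb and C1qc, which the rule limited, are among the 6.

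Cells that met the rule also carried genes of other lineages, and monocyte markers were found in most cells of both sets. Over the 4 monocyte markers the summed level had a median of 1813 CPM per ZC2 cell and 1197 CPM per ZC3 cell. At least 3 UMIs of these markers were held by 36 ZC2 cells and 23 ZC3 cells. Most of the sum was Plac8, at 1396 CPM in ZC2 cells and 1025 CPM in ZC3 cells, against 273 CPM in the other kept cells. Siglech, a surface lectin of plasmacytoid dendritic cells, reached 3 UMIs in 4 ZC2 cells and in 1 ZC3 cell. Its level was 90.8 CPM in ZC2 cells and 42.5 CPM in ZC3 cells, and no other cell of either set held a Siglech UMI. Ly6c2, a surface protein of monocytes, reached 3 UMIs in 12 ZC2 cells and in 13 ZC3 cells, at 344 CPM in ZC2 cells and 154 CPM in ZC3 cells. Ratios of the genes described below and the list medians were also computed without the Siglech cells, without the Ly6c2 cells and with cells of at least 30000 CPM of MHC class II genes alone. No alternative left out cells by their Plac8 level.

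**Figure D1:**
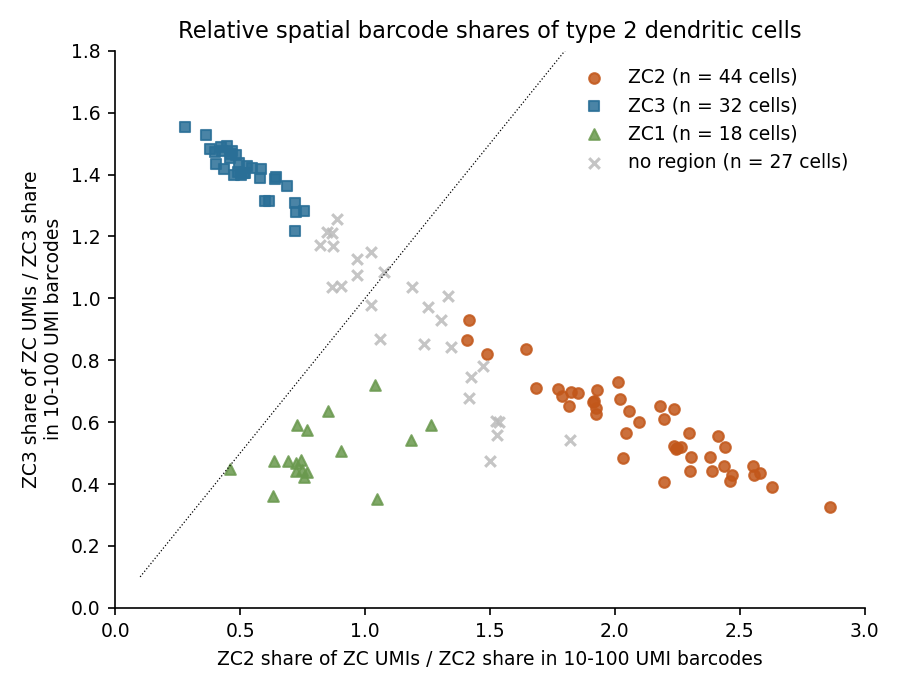
Relative share of ZC2 (x axis) and of ZC3 (y axis) in the 121 type 2 dendritic cells, each share divided by that in barcodes with 10 to 100 gene UMIs. Points are cells and the dotted line marks equal relative shares; the 44 ZC2 cells lay at 1.41 to 2.86 on the x axis, the 32 ZC3 cells at 1.22 to 1.55 on the y axis, and the 27 cells with no region overlapped both ranges.

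Type 2 dendritic cells were a larger share of the ZC2 cells than of the ZC3 cells. They were 7.32% of the 601 kept cells of ZC2 (5.37% to 9.70%, exact Clopper-Pearson interval) and 2.96% of the 1081 kept cells of ZC3 (2.03% to 4.15%). Macrophages showed the other order, at 45.4% of the ZC2 cells (41.4% to 49.5%) and 67.5% of the ZC3 cells (64.7% to 70.3%). Of the 94 type 2 dendritic cells with a region, 46.8% were ZC2 cells (36.4% to 57.4%), against 24.7% of the other kept cells with a region. ZC3 held 34.0% of the type 2 dendritic cells with a region and 46.5% of the other kept cells with a region. No region was given to 22.3% of the type 2 dendritic cells and 45.1% of the other kept cells. Counted over cells with and without a region, ZC3 held 26.4% of the type 2 dendritic cells and 25.5% of the others. ZC2 then held 36.4% and 13.5%. The setting called raw ZC shares dropped the division, asked for 2 times the next in place of 1.5 and used another UMI minimum. Under it, the order of the numbers turned, to 14 ZC2 cells and 44 ZC3 cells. Type 2 dendritic cells were then 16.5% of the 85 kept cells of ZC2 (9.31% to 26.1%) and 1.99% of the 2207 kept cells of ZC3 (1.45% to 2.67%).

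ZC assignment was a matter of degree. ZC2 made up a median of 57.7% of the ZC UMIs of a ZC2 cell (37.1% to 75.5%), against 13.2% in ZC3 cells (7.33% to 20.0%). ZC3 made up a median of 33.8% of the ZC UMIs in ZC2 cells and 82.2% in ZC3 cells, and it was 58.0% of those in barcodes with 10 to 100 gene UMIs. The plot of relative shares shows 13 ZC2 or ZC3 cells whose top share was 1.5 to 2 times the next and 13 cells without a region at 1.2 to 1.5 times. On the cell rule, 14 cells had exactly 5 lineage UMIs, and 11 cells passed every other limit with 4.

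Between the sets 4806 genes had enough UMIs to be compared. Of these, 532 were higher in ZC2 cells (11.1%) and 390 were lower (8.11%), and the median ratio was 1.05. The same comparison in macrophages, 273 ZC2 cells and 730 ZC3 cells chosen by C1q level, had 633 of 10908 genes higher (5.8%) and 546 lower (5.01%). Its median ratio was 0.994. Macrophage ratios are given beside those of the dendritic cells as a description, because the difference between the cell types could not be tested. Region assignment was also weaker in macrophages. The top relative share was a median of 1.85 times the next in ZC2 macrophages, against 3.20 times in ZC2 dendritic cells. For ZC3 it was 2.13 and 2.83 times. ZC UMIs of ZC2 macrophages were a median of 43.6% ZC2 and 44.9% ZC3.

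Chemokine genes that interferon gamma induces were lower in ZC2 cells. Cxcl9 was at 161 CPM in ZC2 cells, against 1595 CPM in ZC3 cells (ratio 0.101, 0.0829 to 0.122). Per cell, its level had a lowest value of 0, a median of 0 and a highest value of 1152 CPM in ZC2 cells, and in ZC3 cells 0, 18.97 and 12813 CPM. Cells without the gene stood in both sets, so the ranges overlapped. The upper quartile of the ZC3 cells, 1767 CPM, was above every ZC2 cell. The highest ZC3 cells held 12813, 7366, 6708, 5567 and 5287 CPM, so the summed ZC3 level rested largely on few cells. In macrophages the Cxcl9 ratio was 1.201.

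Free RNA limits what a single Cxcl9 UMI shows, because Cxcl9 was at 1120 CPM in barcodes with 10 to 100 UMIs. At 5000 UMIs per cell, Cxcl9 was found in 13 of 44 ZC2 cells (29.5%, 16.8% to 45.2%) and 15 of 32 ZC3 cells (46.9%, 29.1% to 65.3%). T cells, which should lack it, had a Cxcl9 UMI in 18.3% of 344 cells (14.4% to 22.8%) at the same depth, with a median depth of 6647 UMIs before thinning. Without thinning the shares were 43.2% of ZC2 cells, 50% of ZC3 cells and 23.03% of 495 T cells. The share in ZC2 cells thus had an interval that reached into that of T cells. ZC1 cells held Cxcl9 at 14.2 CPM and cells without a region at 682.7 CPM.

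The chemokine list had 6 of 13 compared genes lower in ZC2 cells and 1 higher, with a median ratio of 0.902. That median was 0.344 in cells with at least 10 lineage UMIs and 1.32 without the Ly6c2 cells. Cxcl10, the other Cxcr3 ligand measured, was at 241 CPM in ZC2 cells, against 924 CPM in ZC3 cells (ratio 0.261, 0.219 to 0.309). Cxcl16, which binds Cxcr6 on T cells, was at 176 CPM in ZC2 cells, against 349.6 CPM in ZC3 cells (ratio 0.504, 0.403 to 0.629), and under raw ZC shares its ratio was 0.814. Both had macrophage ratios near 1, 0.971 for Cxcl10 and 1.18 for Cxcl16. Ccl22, a ligand of Ccr4, was at 8.13 CPM in ZC2 cells and 80.3 CPM in ZC3 cells, and 1 ZC3 cell gave 88.2% of the ZC3 UMIs. Without the leading cell of each set its ratio was 0.424, against 0.101 with it. Ccl3 and Ccl4, inflammatory chemokines, were also lower, at ratios of 0.155 and 0.459, and 1 ZC3 cell held 86% and 51.6% of their UMIs. Without the leading cells their ratios were 0.741 and 0.6903, and Ccl4 was at 1.29 under raw ZC shares and 1.400 without the Ly6c2 cells. The 1 higher gene was Ccl8 (ratio 2.39, 1.08 to 5.82). Subtraction of free RNA left Ccl8 at the floor in both sets, so its 0.861 there has no direction. Ccl17, the other Ccr4 ligand, had a ratio of 1.18 and came mostly from 1 cell in each set, with ratios of 0.0512 under raw ZC shares and 3.700 with at least 10 lineage UMIs.

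Genes induced by interferon gamma were lower in ZC2 cells for 9 of 15 compared genes and higher for 1, with a median ratio of 0.407. The median was 0.735 over the genes with at least 100 UMIs and 0.6203 in cells thinned to 5000 UMIs. Against this, the median ratio of the same 15 genes in macrophages was 1.14, with none lower. Gbp2, a guanylate-binding protein that attacks membranes of intracellular pathogens, was at 48.8 CPM in ZC2 cells, against 361 CPM in ZC3 cells (ratio 0.135, 0.0924 to 0.193). A Gbp2 UMI was found in 11 ZC2 cells and 20 ZC3 cells, and the medians per cell were 0 CPM in ZC2 cells and 54.3 CPM in ZC3 cells. The ZC3 cells highest in Cxcl9 were also those highest in Gbp2, at 981 to 2017 CPM. Serpina3g, a serine protease inhibitor, was at 100.3 CPM in ZC2 cells, against 359 CPM in ZC3 cells (ratio 0.279, 0.212 to 0.365). Other guanylate-binding proteins, Gbp3, Gbp4, Gbp5 and Gbp7, were lower as well, at ratios of 0.645, 0.319, 0.226 and 0.407. Gbp3 was at 0.765 without the Ly6c2 cells, and Gbp5 at 0.596 under raw ZC shares. The immunity-related GTPases Igtp and Iigp1 had ratios of 0.326 and 0.298. How reads shared by near-identical members of such families were assigned is not given in the sources used here. Values of single Gbp, Ifi200, H2-Q, Cd209 and Hspa1 genes are uncertain to that extent.

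Of the genes of the signal path given here, Irf1, Ifngr1 and Ciita had ratios closer to 1, and Socs1 did not. Irf1, a transcription factor induced early by interferon gamma, had a ratio of 1.02. The receptor gene Ifngr1 had a ratio of 0.876 and Ciita, which switches on MHC class II, one of 0.872. Socs1, an inhibitor of cytokine signalling, was the list's 1 higher gene, at 89.5 CPM in ZC2 cells, against 31.5 CPM in ZC3 cells (ratio 2.84, 1.700 to 4.95). In macrophages the Socs1 ratio was 0.709.

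Genes induced by type I interferon were lower in ZC2 cells for 17 of 21 compared genes and higher for none. Their median ratio was 0.421, against 0.733 in macrophages, where 7 were lower. Isg15, a ubiquitin-like protein, was at 163 CPM in ZC2 cells, against 754 CPM in ZC3 cells (ratio 0.216, 0.175 to 0.264). The lowest, median and highest Isg15 levels per cell were 0, 0 and 1799 CPM in ZC2 cells and 0, 219 and 4988 CPM in ZC3 cells. The ranges overlapped, with 21 of 44 ZC2 cells and 25 of 32 ZC3 cells holding a UMI. Irf7, the transcription factor that amplifies type I interferon, was at 114 CPM in ZC2 cells, against 402 CPM in ZC3 cells (ratio 0.283, 0.219 to 0.364). Isg20, an exonuclease that degrades RNA, was at 25.8 CPM in ZC2 cells, against 126 CPM in ZC3 cells (ratio 0.204, 0.117 to 0.3403).

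The remaining lower genes of this list spanned ratios of 0.219 (Ifit1, which binds foreign RNA) to 0.589 (Oas1a, a sensor of double-stranded RNA). They included Ifit2, Ifit3, Rsad2, Oas3, Oasl2, Zbp1, Usp18, Rtp4 and Xaf1. Ifi204 and Ifi205, members of the Ifi200 family, and the GTPase Ifi47 were lower too, at 0.3500, 0.4396 and 0.4303. Mx1, Ifi209, Stat2 and Bst2 lay between the limits, at 0.685, 0.786, 0.889 and 1.100. Ifit2 was at 0.698 without the deepest 10% of the cells, Oas1a at 0.676 with C1q below 500 CPM and Xaf1 at 0.741 under raw ZC shares, where Mx1 was at 1.05, Ifit1 at 0.07498 and Usp18 at 0.219. Bst2, or tetherin, is abundant in plasmacytoid dendritic cells, and its ratio was 0.616 in the cells with at least 30000 CPM of MHC class II genes. Ifnar1, a chain of the type I interferon receptor, was higher, at 63.7 CPM in ZC2 cells, against 37.8 CPM in ZC3 cells (ratio 1.69, 1.01 to 2.88), and had a ratio of 1.24 without the Siglech cells.

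Among the 4806 compared genes, 21 were on the type I interferon list and 15 on the interferon gamma list. Both lists were written with earlier results of these data known. Of the 15 lowest genes chosen from all 4806 by a rule on depth, spread over cells and ratio, 7 were on the interferon lists. They were Cxcl9, Gbp2, Isg15, Irf7, Serpina3g, Oasl2 and Ifi204. The others were Cxcl10, Fcgr1, Phf11d, Ifi211, Ccnd2, Trafd1, Fgl2 and Ly6a. Ifi211, another member of the Ifi200 family, was at 48.8 CPM in ZC2 cells and 181 CPM in ZC3 cells (ratio 0.269, 0.1799 to 0.395). Ly6a, the surface protein Sca-1, was the most abundant of them, at 675 CPM in ZC2 cells, against 1745 CPM in ZC3 cells (ratio 0.387, 0.347 to 0.4303), with a macrophage ratio of 1.03. Per cell its median was 166 CPM in ZC2 cells and 1225 CPM in ZC3 cells. Fgl2, a secreted protein that dampens T cell responses, was at 172 CPM in ZC2 cells and 447 CPM in ZC3 cells (ratio 0.385, 0.3097 to 0.476). Ccnd2, a cyclin of the G1 phase, was at 58.3 CPM in ZC2 cells and 202 CPM in ZC3 cells (ratio 0.289, 0.1997 to 0.411).

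**Figure D2:**
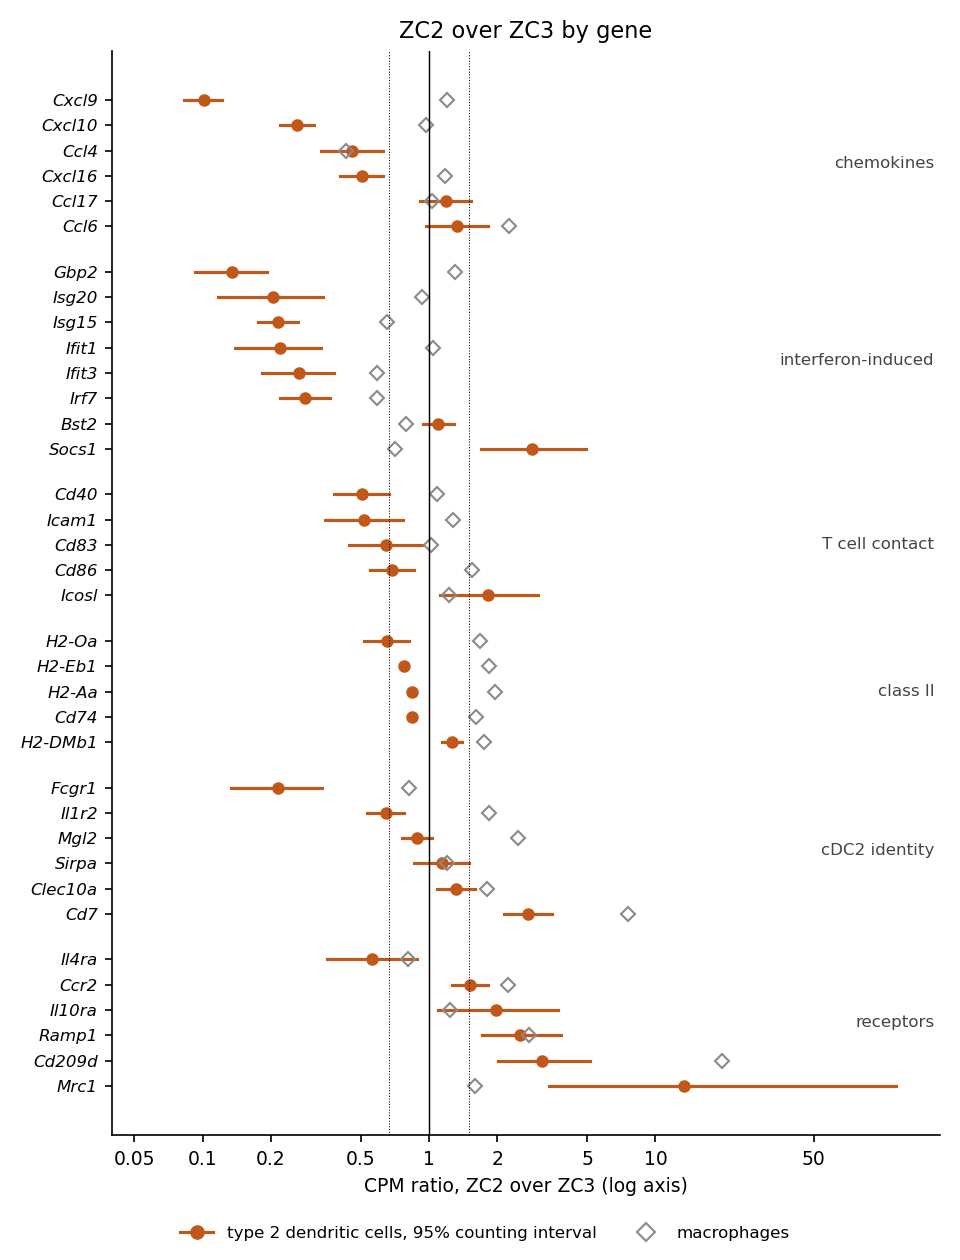
Ratio of ZC2 over ZC3 for named genes on a log axis, in type 2 dendritic cells (filled, with the 95% counting interval) and in macrophages (open diamonds, interval not drawn). Dotted lines mark 0.667 and 1.5; Cxcl9 lies at 0.101 in the dendritic cells and 1.201 in macrophages, and Cd7 at 2.73 and 7.56.

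The upstream sequences of 4 of these genes are printed to show where interferon-responsive letters lie in them. They are the 250 bases before the start of transcription in the RefSeq table (GRCm38.p6), on the gene's own strand. Capitals mark GAAA, any 2 bases and GAAA, the core of the interferon-stimulated response element (ISRE), found on either strand. In Isg15 the 3 matches overlap each other.
Isg15 (chr4:156200819-156201068, minus strand): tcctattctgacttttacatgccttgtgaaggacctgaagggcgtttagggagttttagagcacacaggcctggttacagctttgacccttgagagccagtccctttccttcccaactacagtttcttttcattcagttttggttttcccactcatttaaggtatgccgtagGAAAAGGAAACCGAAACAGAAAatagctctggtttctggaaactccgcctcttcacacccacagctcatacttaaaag
Cxcl10 (chr5:92348890-92349139, minus strand): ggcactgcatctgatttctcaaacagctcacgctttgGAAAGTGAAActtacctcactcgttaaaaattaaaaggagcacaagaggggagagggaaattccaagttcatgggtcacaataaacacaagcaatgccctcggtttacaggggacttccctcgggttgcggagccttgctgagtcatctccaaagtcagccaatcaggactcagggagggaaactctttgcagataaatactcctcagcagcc
Rsad2 (chr12:26456453-26456702, minus strand): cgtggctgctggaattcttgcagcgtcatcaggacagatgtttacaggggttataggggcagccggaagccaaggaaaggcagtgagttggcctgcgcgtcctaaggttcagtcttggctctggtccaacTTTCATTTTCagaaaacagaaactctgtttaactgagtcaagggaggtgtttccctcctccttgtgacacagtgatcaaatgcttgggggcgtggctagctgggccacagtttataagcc
Cxcl9 (chr5:92328080-92328329, minus strand): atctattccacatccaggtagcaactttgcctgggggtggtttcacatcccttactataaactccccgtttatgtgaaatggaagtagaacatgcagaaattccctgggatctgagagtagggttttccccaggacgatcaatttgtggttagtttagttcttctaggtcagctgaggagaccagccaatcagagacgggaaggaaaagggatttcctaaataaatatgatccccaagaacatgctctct
No match to the ISRE letters, nor to TTC, any 3 bases and GAA, the core of the gamma-activated site, was in this window of Cxcl9. Over all 27025 genes of the table, 3.46% held the ISRE letters and 8.13% the letters of that site in the same 250 bases of any of their promoters, both strands read. Of the type I interferon genes compared, 16 were matched in the table, of which 9 held the ISRE letters and 4 those of the gamma-activated site. Of the interferon gamma genes, 11 were matched, of which 7 held the ISRE letters and 5 those of the gamma-activated site. None of the 14 glycolysis genes matched held either. These matches describe the letters and are no evidence of binding.

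Cells differed widely in the interferon genes within each set. Summed over the interferon gamma list, a cell's level ran from 86.1 to 3949 CPM in ZC2 cells with a median of 806, and from 344 to 20733 CPM in ZC3 cells with a median of 1244. The upper quartile was 1374 CPM in ZC2 cells and 3518 CPM in ZC3 cells, so the sets parted mainly in their higher cells. For the type I list the medians were 1178 CPM in ZC2 cells and 2716 CPM in ZC3 cells. The highest cells held 10179 CPM in ZC2 and 22343 CPM in ZC3.

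The interferon gamma list had medians of 834 CPM in the 18 ZC1 cells and 819 CPM in the 27 cells without a region. The type I list had medians of 748 CPM in ZC1 cells and 1886 CPM in cells without a region.

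**Figure D3:**
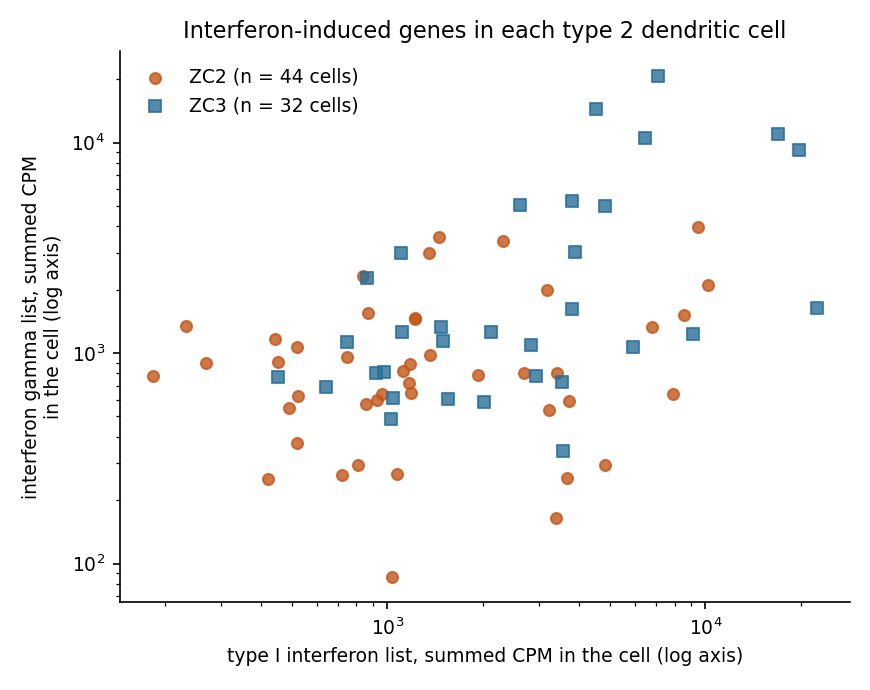
Summed CPM of the type I interferon list (x axis, log) and of the interferon gamma list (y axis, log) in each ZC2 and ZC3 cell. ZC3 cells reach 20733 CPM on the y axis and ZC2 cells 3949 CPM, while the lower parts of both ranges overlap.

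The interferon differences were in the same direction in every alternative setting run for Cxcl9, Cxcl10, Gbp2, Isg15, Irf7 and Serpina3g. Of the cells with the highest levels, the setting without leading cells left out only the top cell of each set. The region rule on raw ZC shares, which left 14 ZC2 cells, moved Gbp2 to 0.299, Isg20 to 0.437, Cxcl9 to 0.0618, Phf11d to 0.122, Oasl2 to 0.196 and Ifi204 to 0.561. Trafd1 was then at 0.688. In cells with at least 10 lineage UMIs, Cxcl10 was at 0.152, Isg20 at 0.339 and Fgl2 at 0.6596.

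**Figure D4:**
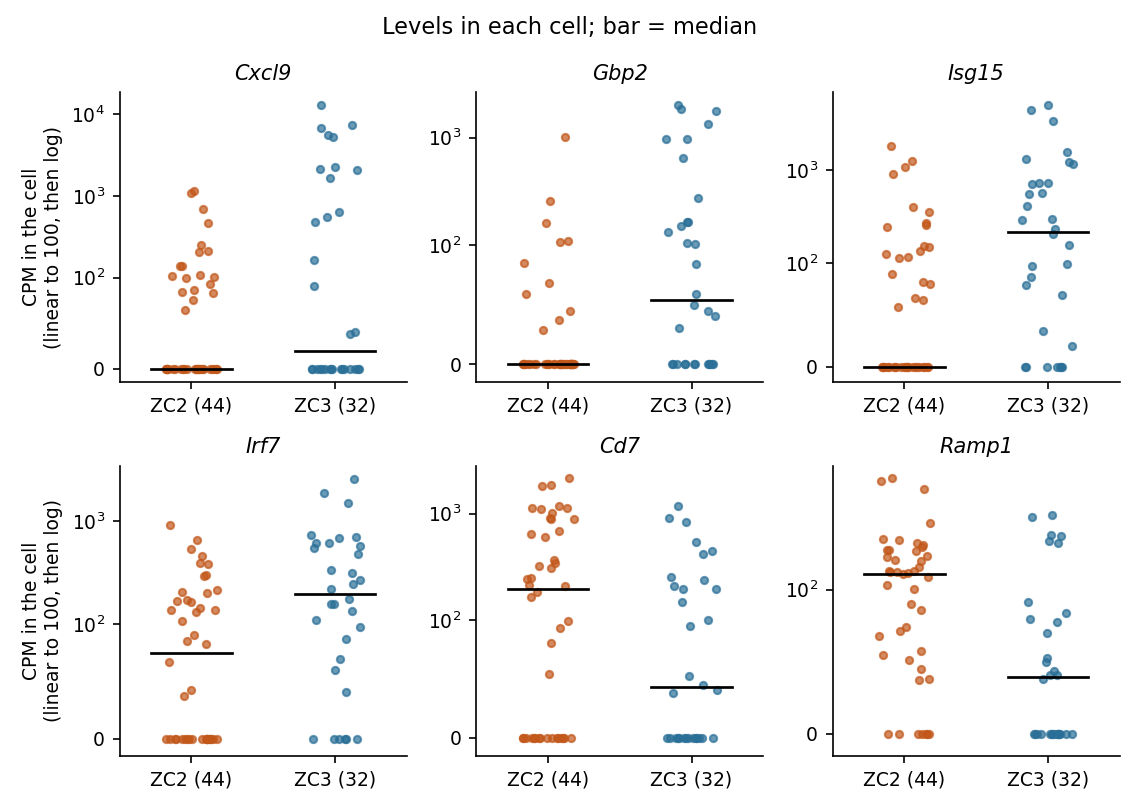
CPM of 6 genes in each of the 44 ZC2 cells (left) and 32 ZC3 cells (right), on an axis that is linear to 100 CPM and then logarithmic. Bars are medians; Isg15 has a median of 0 in ZC2 cells and 219 CPM in ZC3 cells, and Ramp1 133 CPM in ZC2 cells and 39.3 CPM in ZC3 cells.

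Costimulation genes, whose proteins meet receptors on T cells, were lower in ZC2 cells for 3 of 6 compared and higher for 1. Cd40, the receptor for CD40 ligand on helper T cells, was at 115 CPM in ZC2 cells, against 228 CPM in ZC3 cells (ratio 0.504, 0.381 to 0.664), and under raw ZC shares its ratio was 0.918. Its medians per cell were 111 CPM in ZC2 cells and 85.5 CPM in ZC3 cells, the other order from the summed levels. Icam1, which binds LFA-1 on T cells, was at 59.6 CPM in ZC2 cells, against 115 CPM in ZC3 cells (ratio 0.519, 0.348 to 0.764). Cd83 had a ratio of 0.645, with 43.1% of its ZC3 UMIs from 1 cell, and was at 0.992 without the leading cells, 1.05 under raw ZC shares and 1.09 where the top ZC was at least 2 times the next. Cd86, a ligand of CD28, was at 197 CPM in ZC2 cells and 287 CPM in ZC3 cells (ratio 0.686, 0.547 to 0.858), just inside the limit, and at 1.09 under raw ZC shares and 0.528 in thinned cells. Icosl, the ligand of ICOS, was at 74.5 CPM in ZC2 cells, against 40.9 CPM in ZC3 cells (ratio 1.82, 1.12 to 3.02). The list's median ratio was 0.666, against 1.15 in macrophages, and it was 1.05 under raw ZC shares.

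Checkpoint ligands had 1 of 7 compared genes lower and none higher, with a median ratio of 0.9496. That gene was Lgals9, galectin-9, a ligand of Tim-3, at 56.9 CPM in ZC2 cells and 89.8 CPM in ZC3 cells (ratio 0.634, 0.415 to 0.961). Cd274, which encodes PD-L1, was at 43.4 CPM in ZC2 cells and 53.5 CPM in ZC3 cells (ratio 0.8100, 0.484 to 1.35), and its ratio was 0.372 under raw ZC shares. Pdcd1lg2, which encodes PD-L2, had a ratio of 1.05.

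Maturation and migration genes had 3 of 11 lower, 1 higher and a median ratio of 1.08. Marcksl1, an actin-binding protein, was at 112 CPM in ZC2 cells, against 247 CPM in ZC3 cells (ratio 0.455, 0.344 to 0.597), moving to 0.811 under raw ZC shares. The other 2 lower genes were Cd40 and Ccl22. Il4i1, an amino acid oxidase, was higher (ratio 3.07, 1.29 to 8.42), with 72% of its ZC2 UMIs from 1 cell, and its ratio without the leading cells was 1.51. The NF-kB subunit Nfkb1 had a ratio of 1.39 and Relb one of 1.08, or 1.69 under raw ZC shares.

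Among inflammatory cytokines and NF-kB genes 2 of 7 were higher, none was lower and the median ratio was 1.12. Ptgs2, the inducible enzyme of prostaglandin synthesis, had 63 UMIs in ZC2 cells and 6 UMIs in ZC3 cells (ratio 9.04, 3.93 to 25.6), with 53.97% of the ZC2 UMIs in 1 cell. Tnfaip3, an inhibitor of NF-kB, was at 119 CPM in ZC2 cells and 74.02 CPM in ZC3 cells (ratio 1.61, 1.12 to 2.35), and at 0.957 under raw ZC shares. Il1b, interleukin-1 beta, was at 374 CPM in ZC2 cells and 539 CPM in ZC3 cells (ratio 0.695, 0.591 to 0.816), and under raw ZC shares its ratio was 1.31. Osm and Nfkbia had ratios of 0.9496 and 0.971.

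MHC class II genes were abundant in both sets and differed little. The list summed to 51758 CPM in ZC2 cells and 61481 CPM in ZC3 cells, with a median ratio of 0.842 and 1 of 9 genes past the limit. Macrophages had a median ratio of 1.83 for the same genes, with 8 of 9 higher in ZC2. Cd74, the invariant chain, was at 24256 CPM in ZC2 cells and 28724 CPM in ZC3 cells (ratio 0.844, 0.827 to 0.862), and H2-Aa, a class II alpha chain, at 9166 CPM in ZC2 cells and 10888 CPM in ZC3 cells (ratio 0.842, 0.814 to 0.871). H2-Oa, a chain of the modulator of peptide loading, was the gene past the limit, at 188 CPM in ZC2 cells, against 289.8 CPM in ZC3 cells (ratio 0.6501, 0.518 to 0.815). H2-DMb1, a chain of the peptide loader itself, was at 1339 CPM in ZC2 cells and 1062 CPM in ZC3 cells (ratio 1.26, 1.14 to 1.39).

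The median class II level per cell was 57252 CPM in ZC2 cells and 61127 CPM in ZC3 cells. The lower quartile was 25680.3 CPM in ZC2 cells and 46164 CPM in ZC3 cells. In cells with at least 30000 CPM of class II genes alone, the median ratio of the list was 0.937.

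MHC class I genes had 2 of 15 lower, none higher and a median ratio of 0.816. B2m, the chain all class I molecules share, was at 1887 CPM in ZC2 cells and 2542 CPM in ZC3 cells (ratio 0.742, 0.6904 to 0.798). The 2 lower genes were H2-Q4 and H2-Q6, at ratios of 0.441 and 0.581. Tap1, which carries peptides into the endoplasmic reticulum, had a ratio of 0.681, while the class I chain H2-K1 had one of 0.957 and the transactivator Nlrc5 one of 1.13. Lysosome and antigen processing genes had 1 of 12 higher, 1 lower and a median ratio of 1.01. Cst3, the protease inhibitor cystatin C, was at 8866 CPM in ZC2 cells, against 13937 CPM in ZC3 cells (ratio 0.636, 0.616 to 0.657). Ctsl, a lysosomal protease, was at 130.1 CPM in ZC2 cells and 55.1 CPM in ZC3 cells (ratio 2.36, 1.59 to 3.58), but its ratio was 0.855 without the Siglech cells.

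Hypoxia genes were lower in ZC2 cells for 8 of 12 compared and higher for none, with a median ratio of 0.576, against 0.751 in macrophages, where 1 was lower. Slc2a1, a glucose importer, was at 66.4 CPM in ZC2 cells, against 119.7 CPM in ZC3 cells (ratio 0.555, 0.379 to 0.805), with a ratio of 0.333 in thinned cells. Mif, a secreted cytokine, was at 392 CPM in ZC2 cells, against 655 CPM in ZC3 cells (ratio 0.598, 0.513 to 0.696), or at 0.671 in cells with at least 30000 CPM of class II genes. The lowest ratios were those of Ankrd37 (0.331, from 15 UMIs in ZC2 cells and 39 UMIs in ZC3 cells) and P4ha1 (0.382), a collagen prolyl hydroxylase. Hif1a, the oxygen-regulated transcription factor, and Ero1l, an oxidase of the endoplasmic reticulum, had ratios of 0.945 and 0.962. Ranges per cell overlapped, at 169 to 2120.3 CPM for the summed list in ZC2 cells and 74.5 to 3712 CPM in ZC3 cells.

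Glycolysis genes had 5 of 14 lower and none higher, with a median ratio of 0.709, close to the 0.748 of macrophages. Slc16a3, which exports lactate, was at 29.8 CPM in ZC2 cells, against 109 CPM in ZC3 cells (ratio 0.274, 0.162 to 0.449). Pgk1, phosphoglycerate kinase, was at 276 CPM in ZC2 cells, against 548 CPM in ZC3 cells (ratio 0.504, 0.422 to 0.601). Hk1, Tpi1 and Aldoa were the other lower genes, at ratios of 0.524, 0.522 and 0.607. Eno1 and Pfkl had ratios of 0.949 and 1.05. Pgk1 was at 1041 CPM in barcodes with 10 to 100 UMIs, above both sets, and the part of free RNA in its levels was not tested beyond the subtraction, under which its ratio was 0.453.

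Respiratory chain genes did not differ past the limits in any of 18 compared, with a median ratio of 1.07. They ran from 0.835 for Cox7a2, a subunit of complex IV, to 1.24 for Ndufa4, another. Lipid and cholesterol genes had 2 of 12 lower, 1 higher and a median ratio of 0.979. Plin2, which coats lipid droplets, was lower (ratio 0.593, 0.3902 to 0.892), as was Apoe (ratio 0.612, 0.431 to 0.864), a lipid carrier, of whose ZC3 UMIs 1 cell held 54.2%. Without the leading cells its ratio was 1.22. Insig1, which holds back sterol synthesis, was higher (ratio 1.64, 1.04 to 2.62) but at 0.918 in cells with at least 10 lineage UMIs. Fabp5, a fatty acid carrier, had a ratio of 1.34.

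**Figure D5:**
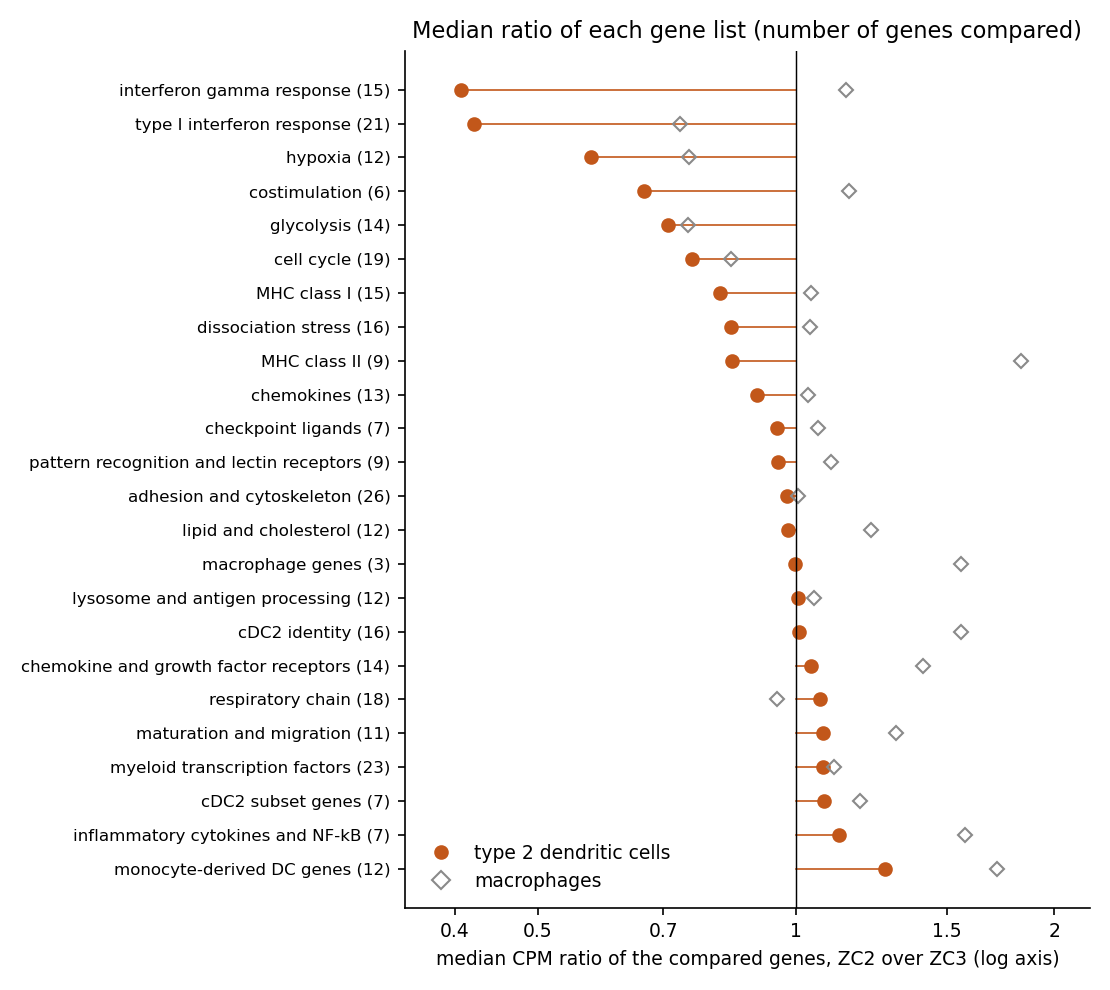
Median ratio of ZC2 over ZC3 over the compared genes of each list with at least 3 such genes (number in brackets), in type 2 dendritic cells (filled) and in macrophages (open), on a log axis. The interferon gamma list lies at 0.407 in the dendritic cells and 1.14 in macrophages, and the respiratory chain at 1.07 and 0.951.

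Identity genes of type 2 dendritic cells were close between the sets. The list of 16 compared genes had a median ratio of 1.01, with 2 higher and 1 lower. Itgax, which encodes CD11c, was at 153 CPM in ZC2 cells and 148 CPM in ZC3 cells (ratio 1.03, 0.7799 to 1.37), and Sirpa, the receptor for CD47, at 168 CPM in ZC2 cells and 148 CPM in ZC3 cells (ratio 1.14, 0.861 to 1.5005, and 0.671 in cells thinned to 5000 UMIs). Itgam, which encodes CD11b, had a ratio of 1.32 and Zbtb46, a transcription factor of conventional dendritic cells, one of 0.732. Ccnd1, Klrd1, H2-DMb2, Cd300a, Clec4a2 and Tnfsf9 had ratios of 0.727, 0.901, 0.8903, 1.15, 1.25 and 0.984.

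Cd7, a surface protein of the immunoglobulin family, was the identity gene with the highest ratio, at 378 CPM in ZC2 cells, against 139 CPM in ZC3 cells (ratio 2.73, 2.14 to 3.51). Per cell, the median was 194 CPM in ZC2 cells (0 to 2145) and 42.8 CPM in ZC3 cells (0 to 1179). It was higher in ZC2 macrophages as well, at a ratio of 7.56, and without the Ly6c2 cells its ratio in the dendritic cells was 4.97. Ltb, which encodes lymphotoxin beta, was higher at 74.5 CPM in ZC2 cells and 47.2 CPM in ZC3 cells (ratio 1.58, 0.994 to 2.55), and at 1.06 without the deepest 10% of the cells. Il1r2, a decoy receptor for interleukin-1, was lower at 267 CPM in ZC2 cells, against 414 CPM in ZC3 cells (ratio 0.645, 0.533 to 0.778). Runx3, a transcription factor, was just inside the limit, at 133 CPM in ZC2 cells and 198 CPM in ZC3 cells (ratio 0.669, 0.509 to 0.879). Of the genes the cell rule used, Cd209a was at 1014 CPM in ZC2 cells and 901 CPM in ZC3 cells, Kmo at 169 CPM in ZC2 cells and 131 CPM in ZC3 cells and Flt3 at 84.03 CPM in ZC2 cells and 44.1 CPM in ZC3 cells.

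Irf4, a transcription factor of type 2 dendritic cells, had too few UMIs to be compared. It was found in 7 ZC2 cells with 12 UMIs and in 1 ZC3 cell with 1 UMI. That gives a ratio of 10.3, with a counting interval of 1.53 to 441.

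Genes that mark monocyte-derived dendritic cells had 4 of 12 higher, 1 lower and a median ratio of 1.27, against 1.72 in macrophages. With at least 10 lineage UMIs the median was 0.934. Fcgr1, the Fc receptor CD64, was the lower one, at 33.9 CPM in ZC2 cells, against 157 CPM in ZC3 cells (ratio 0.215, 0.133 to 0.336). At 5000 UMIs per cell it was found in 11.4% of ZC2 cells (3.79% to 24.6%) and 37.5% of ZC3 cells (21.1% to 56.3%), against 10.5% of T cells, which should lack it. Its unthinned shares were 31.8% of ZC2 cells, 65.6% of ZC3 cells and 12.5% of T cells. Ly6c2 (ratio 2.23, 1.76 to 2.85), Cd14 (ratio 1.87, 1.12 to 3.21) and the chemokine receptor Ccr2 (ratio 1.52, 1.26 to 1.83) were among the higher genes. Without the Siglech cells, Ly6c2 was at 1.19, and with at least 10 lineage UMIs it was at 0.6802 and Ccr2 at 1.25. Cd14 was at 1.16 with C1q below 500 CPM and at 7.45 without the Ly6c2 cells. The list of cDC2 subset genes had 1 of 7 higher and 1 lower, with a median ratio of 1.08. These were Klf4 (ratio 1.68, 1.26 to 2.28), a transcription factor that a branch of type 2 dendritic cells needs, and Ms4a4c (ratio 0.606, 0.528 to 0.694).

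Chemokine and growth factor receptors had 3 of 14 higher, 2 lower and a median ratio of 1.04. Beside Ccr2 and Ifnar1, the higher gene was Il10ra, the binding chain of the interleukin-10 receptor, at 52.9 CPM in ZC2 cells, against 26.8 CPM in ZC3 cells (ratio 1.97, 1.09 to 3.72). Il4ra, the receptor chain for interleukin-4 and interleukin-13, was lower at 46.1 CPM in ZC2 cells, against 81.9 CPM in ZC3 cells (ratio 0.563, 0.354 to 0.884), and at 0.855 under raw ZC shares. Ccr1 was lower too (ratio 0.626, 0.354 to 1.09). Csf2rb and Csf2ra, chains of the GM-CSF receptor, had ratios of 0.722 and 0.785, with Csf2rb at 0.632 in cells with at least 10 lineage UMIs.

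Pattern recognition and lectin receptors had 3 of 9 higher, 1 lower and a median ratio of 0.953, which was 1.33 in thinned cells. Cd209d, a lectin related to Cd209a, was at 125 CPM in ZC2 cells, against 39.4 CPM in ZC3 cells (ratio 3.17, 2.02 to 5.14). At 5000 UMIs per cell it was found in 25% of ZC2 cells (13.2% to 40.3%), 15.6% of ZC3 cells (5.28% to 32.8%) and 0 of 344 T cells. Without the Ly6c2 cells the Cd209d ratio was 17.9. Mrc1, the mannose receptor, had 31 UMIs in ZC2 cells and 2 UMIs in ZC3 cells (ratio 13.3, 3.39 to 115), from 10 ZC2 cells and 2 ZC3 cells, with a macrophage ratio of 1.598. Clec4a3 was higher (ratio 1.56, 1.08 to 2.27), but at 1.09 in thinned cells, and Myd88, the adaptor of Toll-like receptors, was lower (ratio 0.639, 0.471 to 0.865).

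Myeloid transcription factors had 5 of 23 higher, 4 lower and a median ratio of 1.08. Batf3, which type 1 dendritic cells need, was at 90.8 CPM in ZC2 cells, against 34.6 CPM in ZC3 cells (ratio 2.62, 1.598 to 4.46), although Xcr1 and Clec9a, which the rule limited, stayed at 1 and 5 UMIs in ZC2 cells and at 0 and 7 UMIs in ZC3 cells. Cebpa, which directs myeloid progenitors, had 37 UMIs in ZC2 cells and 12 UMIs in ZC3 cells (ratio 2.65, 1.35 to 5.59). Tcf4, which plasmacytoid dendritic cells need, was at 217 CPM in ZC2 cells and 115 CPM in ZC3 cells (ratio 1.89, 1.42 to 2.52), and at 0.754 under raw ZC shares. Batf, with 22 UMIs in ZC2 cells and 10 UMIs in ZC3 cells, and Klf4 were the other higher genes. Id2, an inhibitor of E proteins that conventional dendritic cells need, was lower at 153 CPM in ZC2 cells, against 301 CPM in ZC3 cells (ratio 0.509, 0.3999 to 0.646). Klf2 (ratio 0.419, 0.273 to 0.632), Bcl6 (ratio 0.602, 0.281 to 1.25) and the Notch partner Rbpj (ratio 0.663, 0.443 to 0.986) were lower as well, and Klf2 was at 0.803 without the Ly6c2 cells and Rbpj at 0.802 in cells with at least 30000 CPM of class II genes. Spi1, which encodes PU.1, had a ratio of 0.853. Irf8, which type 1 and plasmacytoid dendritic cells need, had one of 1.28, which was 0.599 without the Siglech cells and 0.354 under raw ZC shares.

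The 15 highest genes chosen from all 4806 by the same rule held none of the interferon lists. Cd7, Cd209d, Ly6c2 and Tcf4 were among them. Ramp1, a partner of the receptor for the neuropeptide CGRP, was at 139.6 CPM in ZC2 cells, against 55.1 CPM in ZC3 cells (ratio 2.53, 1.71 to 3.83). Its lowest, median and highest levels per cell were 0, 133 and 717 CPM in ZC2 cells and 0, 39.3 and 372 CPM in ZC3 cells. A UMI was found in 37 of 44 ZC2 cells and 17 of 32 ZC3 cells, and the ratio in macrophages was 2.75. Rassf4 was at 159.9 CPM in ZC2 cells, against 75.6 CPM in ZC3 cells (ratio 2.12, 1.501 to 3.02), found in 41 ZC2 cells and 20 ZC3 cells. Ighm, the IgM heavy chain, was at 226 CPM in ZC2 cells, against 78.7 CPM in ZC3 cells (ratio 2.87, 2.08 to 4.03) and at 1.44 under raw ZC shares, while the B cell markers Cd79a and Ms4a1 were at 0. Cd79b, the other B cell marker, had 4 UMIs in ZC2 cells and 1 UMI in ZC3 cells.

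The remaining 8 of the 15 had macrophage ratios of 0.896 to 1.298. Pltp, which moves phospholipids between lipoproteins, was at 103 CPM in ZC2 cells and 42.5 CPM in ZC3 cells (ratio 2.42, 1.54 to 3.91). The membrane proteins Tmem176a and Tmem176b, encoded side by side, had ratios of 1.896 and 2.14, and 1.16 and 1.49 where the top ZC was at least 2 times the next. Fcgrt, the neonatal Fc receptor, was at 239.9 CPM in ZC2 cells and 123 CPM in ZC3 cells (ratio 1.95, 1.49 to 2.58). Txnip, which binds thioredoxin and limits glucose uptake, was at 256 CPM in ZC2 cells and 137 CPM in ZC3 cells (ratio 1.87, 1.44 to 2.44). Map3k8, a kinase of the Toll-like receptor pathway, Lta4h, which makes leukotriene B4, and Dab2, an endocytic adaptor, had ratios of 1.89, 1.86 and 1.86.

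Cell cycle genes had 7 of 19 lower, none higher and a median ratio of 0.756, against 0.8399 in macrophages. With at least 10 lineage UMIs the median was 1.23. Mcm2, a subunit of the replicative helicase, had 11 UMIs in ZC2 cells and 32 UMIs in ZC3 cells (ratio 0.296, 0.135 to 0.602), and 0.787 was its ratio under raw ZC shares. Mki67, a marker of dividing cells, had 16 UMIs in ZC2 cells and 35 UMIs in ZC3 cells (ratio 0.393, 0.203 to 0.7298), from 6 ZC2 cells and 7 ZC3 cells. Top2a and Ccnb2, of the later phases, had ratios of 1.15 and 1.23, with most Ccnb2 UMIs in 1 cell of each set.

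Dissociation stress genes had 4 of 16 lower, none higher and a median ratio of 0.8403. Hspa1a and Hspa1b, heat shock chaperones, were at 6.78 CPM in ZC2 cells and 485 CPM in ZC3 cells and at 4.07 CPM in ZC2 cells and 395 CPM in ZC3 cells. A single ZC3 cell gave 80.8% of the Hspa1a and 79.3% of the Hspa1b UMIs of ZC3. Fosb and Ier3, early response genes, were the other lower genes, at 0.635 and 0.626, while Fos, Jun and Junb had ratios of 0.835, 0.9401 and 0.887. Fosb was at 0.841 in thinned cells, and Ier3 at 1.41 under raw ZC shares and 1.33 in cells with at least 30000 CPM of class II genes. The part of tissue handling in the other results was not tested.

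Adhesion and cytoskeleton genes had 3 of 26 lower, 1 higher and a median ratio of 0.976. Beside Icam1, the lower genes were the protease Adam8 (ratio 0.484, 0.256 to 0.889) and the adhesion protein Epcam (ratio 0.633, 0.436 to 0.916), which was at 0.768 in thinned cells and 0.187 under raw ZC shares. Macrophage genes had 3 compared genes, Mrc1, Apoe and Cd68, the last at a ratio of 0.998. No gene of the T cell list or of the melanoma list had enough UMIs to be compared, and their summed levels were 51.5 and 37.95 CPM in ZC2 cells and 12.6 and 12.6 CPM in ZC3 cells.

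Several ratios near the limits crossed them in some settings. Without the Siglech cells, Il1r2 was at 0.676, H2-Oa at 0.676 and Myd88 at 0.6704. Without the Ly6c2 cells, Lgals9 was at 0.678, Ms4a4c at 0.764, Il4ra at 0.793, Plin2 at 0.689 and Fcgr1 at 0.143. Under raw ZC shares, Cst3 was at 0.706, Ccr1 at 0.712, Adam8 at 0.712, H2-Q6 at 0.887 and Irf1 at 1.66. Icosl was then at 1.42, Klf4 at 1.21, Cebpa at 1.27, Pltp at 1.22, Fcgrt at 1.39 and Map3k8 at 1.37. In cells with at least 10 lineage UMIs, Map3k8 was at 1.08, Il10ra at 1.25, Mki67 at 0.664 and Icam1 at 0.333.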

How the data were processed

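Gene expression and spatial barcode libraries of immune cells from a B78ChOVA melanoma were made with 10x Genomics droplets, per the labels. The authors' deposited matrix holds UMI counts of genes and of the 3 ZC barcodes per droplet barcode, checked here to be whole numbers. Per the submitters' processing notes, the tool was Cell Ranger 4.0.0 and the genome build mm10. Cells were kept with at least 1000 gene UMIs, 500 genes and at most 10% mitochondrial UMIs, 4236 of 4476 barcodes with at least 1000 UMIs. Doublets were not called. The cell rule limits CD3 and C1q genes, and an alternative leaves out the deepest 10% of the cells.

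Counts were summed per set and scaled to CPM. Intervals are exact Poisson for levels, exact conditional binomial for ratios and Clopper-Pearson for shares, all at 95% and for counting error only. PCR duplicates are collapsed by UMI. Comparison of a gene needed 30 UMIs in ZC2 and ZC3 cells together and 3 expected in the smaller set, and a set at 0 was put at a floor of 3 counts. Cells of 1 library are not replicates, so no p-value was computed. Named genes are the 2 highest and 2 lowest of each of the 26 lists, the 15 highest and 15 lowest genes with at least 100 UMIs found in at least 10% of the cells of the higher set, no more than 25% of them in 1 cell and the same direction in the mean per-cell CPM, and the identity and rule genes. Other list members given were chosen after their values were seen. Some list members, included in the counts and medians, are not reported here by name. The members and lists were chosen with earlier results of these data known. Shares of cells were taken after thinning each cell to 5000 UMIs, which left out 0 ZC2 cells, 0 ZC3 cells and 151 of 495 T cells. The code was tested on simulated data. Alternatives changed the region rule, cell rule, scaling, depth, free RNA and gene filters. Promoter positions and sequences are those of the RefSeq promoter table (GRCm38.p6), matched by symbol. Scripts ran in Python 3.11.15 with pandas 2.3.3, numpy 2.4.6, matplotlib 3.10.9 and scipy 1.17.1.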

Additional observations from a re-analysis of the deposited data

Results flagged for a closer look

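In 3 genes named by the rule, the ratio of ZC2 over ZC3 was past the limit of 1.5-fold in one direction in type 2 dendritic cells and in the other direction in macrophages. The difference between the cell types was not tested, since there is 1 library. Apoe, a lipid carrier, had a ratio of 0.612 (0.431 to 0.864) in the dendritic cells and 1.56 (1.54 to 1.57) in macrophages. Il1r2, a decoy receptor for interleukin-1, had ratios of 0.645 (0.533 to 0.778) in the dendritic cells and 1.83 (1.44 to 2.32) in macrophages. H2-Oa, which modulates class II peptide loading, had ratios of 0.6501 (0.518 to 0.815) in the dendritic cells and 1.68 (0.958 to 2.87) in macrophages, where its levels were 2.904 CPM in ZC2 and 1.73 CPM in ZC3. Of the ZC3 UMIs of Apoe in the dendritic cells, 1 cell held 54.2%. Each of these ratios in the dendritic cells left the lower range in some alternatives: Apoe was at 1.22 without the leading cells, and Il1r2 at 0.676 and H2-Oa at 0.676 without the Siglech cells.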

How the results depend on the processing

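No paired analysis was possible because the 2 samples are libraries of the same cells and no groups of replicates exist. Over 18 alternatives, of which 14 were planned and 4 were added after the data were seen, 21 of 1867 ratios of genes past the 1.5-fold limit crossed 1, called reversed here, as did 122 of 1209 of genes within it, and 413 of 432 list medians moved by less than the spread used; 17 of 24 lists had medians on both sides of 1. The limits of at least 100 ZC UMIs and of at least 500 UMIs and 250 genes changed no cell, so they could not move a value. At most 5% mitochondrial UMIs and the removal of the Siglech cells gave identical values, with 40 ZC2 cells and 31 ZC3 cells in each. The counts above include all of these settings. The number of cells moved to 14 in ZC2 under raw ZC shares, and in ZC3 to 21 with at least 10 lineage UMIs and 19 without the Ly6c2 cells. Genes higher and lower numbered 207 and 176 in thinned cells, 2637 and 2488 with no minimum of UMIs, and 72 and 118 with at least 100 UMIs per gene; fewer or more genes were then compared. The cause of the other moves was not tested.

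Under raw ZC shares the median of the costimulation list reversed to 1.05, the MHC class II median was 0.81, and Tnfaip3 (0.96), Tcf4 (0.75), Ctsl (0.49), Ccl4 (1.29), Ier3 (1.41) and Cd83 (1.05) reversed; Cd83 was also at 1.09 with the top ZC at least 2 times the next. With at least 10 lineage UMIs the medians were 0.93 for monocyte-derived DC genes, 0.90 for MHC class II, 0.34 for chemokines and 1.23 for the cell cycle, and Insig1 (0.92) and Ly6c2 (0.68) reversed. The macrophage gene median, over 3 genes, was 0.76 in thinned cells, 0.79 with C1q below 500 CPM, 0.79 without the deepest 10% of the cells and 1.72 with no minimum. The MHC class II median was 0.80 with the top ZC at least 2 times the next, 0.88 at 5% mitochondrial UMIs at most, 0.80 centred on the median of all genes, 0.88 without the Siglech cells and 0.94 with at least 30000 CPM of class II genes. Thinned cells gave medians of 1.33 for pattern recognition receptors and 0.58 for the type I interferon list. The interferon gamma median was 0.73 with at least 100 UMIs per gene, and the glycolysis median 0.61 without the Ly6c2 cells. Ccl4 reversed without the Ly6c2 cells (1.40), and Apoe without the Ly6c2 cells (1.09), without leading cells (1.22) and at 30000 CPM of class II genes (1.04), where Ly6c2 (0.89), Ctsl (0.89) and Ier3 (1.33) reversed too. Ctsl was also at 0.85 both at 5% mitochondrial UMIs and without the Siglech cells. C1qa reversed with C1q below 500 CPM (0.95). With free RNA subtracted, C1qa and Ccl8 were at the floor in both sets, so their 0.86 has no direction. Both values are counted above as reversed. Depth limits genes under 30 UMIs over both sets, such as Irf4.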
